A study of Mus musculus with 2 samples.

Results

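The Meis, Pbx and Pknox genes encode homeodomain transcription factors of the TALE class, and 8 of them were described here in the heart of the newborn mouse: Meis1, Meis2, Meis3, Pbx2, Pbx3, Pbx4, Pknox1 and Pknox2. Members were the gene entries whose identifier carries one of these symbols in the GENCODE mouse annotation, and all 8 were found among 43346 genes. Other genes of these families were not analysed here. The rule itself uses no measured value, although the genes were proposed with earlier results of these data known. The data were total RNA-seq of whole heart tissue, in which RNA longer than 200 nucleotides is sequenced after removal of ribosomal RNA. The study held 1 group, hearts of healthy B6NTac;B6NCrl/Lap mice at postnatal day 0 with male and female tissue pooled, and no treatment, transgene or second genotype. Its 2 biological replicates were independent tissue isolates under one donor label, replicate 1 from 15 mice and replicate 2 from a pool whose size is not given in the sources used here. With 1 group no comparison between conditions was possible. Statements below therefore set the genes against each other and the replicates against each other, and no p was computed, since the smallest that exact sign flips of 2 replicates allow is 0.5 (two-sided).

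TALE proteins carry a homeodomain, the DNA-binding fold of homeobox factors, with extra amino acids in the loop between its first and second helices. Meis and Pknox proteins share a second conserved region near the amino terminus through which they bind Pbx proteins, and the resulting complexes bind DNA alone or with Hox and tissue-specific factors, while the partner helps to hold Pbx in the nucleus. In the heart, Meis1 is known as a regulator of the exit of cardiomyocytes from the cell cycle after birth, and Meis and Pbx genes are known for roles in the formation of the outflow tract.

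Part of the loop that marks this class can be read in the coding sequences of all 8 genes. The 45 bases around the loop are shown for each member from the coding transcript named, in GENCODE M21 on GRCm38, 5′ to 3′ in the sense direction. The 9 bases in capitals code for a motif within the loop, which reads proline, tyrosine, proline in every member. They are not the whole loop, whose ends were not mapped. The motif was located by a search for proline, then tyrosine or phenylalanine, then proline, so its prolines were set by the search.
Meis1 (Meis1-209): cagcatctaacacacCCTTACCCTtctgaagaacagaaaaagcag
Meis2 (Meis2-201): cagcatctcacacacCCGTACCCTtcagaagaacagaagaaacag
Meis3 (Meis3-201): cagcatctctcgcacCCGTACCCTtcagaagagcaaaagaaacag
Pbx2 (Pbx2-201): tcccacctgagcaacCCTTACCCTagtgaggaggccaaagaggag
Pbx3 (Pbx3-201): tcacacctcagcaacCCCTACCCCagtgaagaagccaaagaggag
Pbx4 (Pbx4-201): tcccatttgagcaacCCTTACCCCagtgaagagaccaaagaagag
Pknox1 (Pknox1-201): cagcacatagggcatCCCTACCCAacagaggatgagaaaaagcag
Pknox2 (Pknox2-201): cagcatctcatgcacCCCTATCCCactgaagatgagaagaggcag
Over the 189 bases of the homeobox, identity was 82.0% to 84.7% among the Meis genes, 79.4% to 82.5% among the Pbx genes and 78.3% between Pknox1 and Pknox2. Between Meis and Pknox genes it was 65.1% to 71.4%, and between Pbx genes and the other members it was 44.4% to 53.4%. The sequences thus fall into a Meis and Pknox group and a Pbx group.

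The summed gene-level count was 69946215 for replicate 1 and 73615802 for replicate 2. Counts of the replicates differed by more than sampling noise, with a median chi-square of 45.91 on 1 degree of freedom over 15654 genes, so the libraries were not copies of one another. Heart identity was clear in both, since all 8 cardiomyocyte markers were detected, with summed levels of 12513 and 12590 TPM. Among other markers, summed TPM was close for endothelial markers, at 172.5 and 172.7, macrophage markers, at 34.3 and 30.1, and Schwann and neuronal markers, at 3.28 and 3.25. Skeletal muscle markers summed to 1628 and 1853 TPM. The lists that follow, of other heart cells and of other tissues, differed more between the replicates. Summed TPM of 6 urothelial markers was 5.41 in replicate 1 and 82.8 in replicate 2, with Krt20 at 0 counts in both and Upk2 and Krt5 at 0 counts in replicate 1. Summed TPM of 8 smooth muscle and pericyte markers was 338 and 686, all 8 being higher in replicate 2, and that of 9 epicardial and mesothelial markers was 59.5 and 131, 6 of the 9 being higher. Upk1b, at 5.01 and 20.5 TPM, counts in both the urothelial and the epicardial sum. The epicardial sum rose mainly through Upk1b and the keratins Krt8, at 4.53 and 31.4 TPM, Krt18, at 3.44 and 20.7, and Krt19, at 5.85 and 13.8. Wt1 and Msln rose by fewer TPM, and Upk3b, Lrrn4 and Tbx18 were lower in replicate 2. The sum therefore does not show that epicardial markers rose as a set. Summed TPM of 8 fibroblast markers was 511 and 647, 7 of the 8 being higher in replicate 2. Summed TPM of 12 lymphocyte and thymus markers was 9.34 and 0.570, with Dntt and Cd3e at 0 counts in both replicates and Cd4, Cd8a, Cd79a, Ptcra, Cd8b1 and Rag2 at 0 counts in replicate 2. Summed TPM of 6 lung markers was 4.61 and 0.40, with Nkx2-1 at 0 counts in both. The part of these differences in the values of the Meis, Pbx and Pknox genes was not tested. In a bulk sample, fewer cells of a type and less RNA per cell cannot be told apart.

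Most of these genes were expressed in both hearts, and Pbx4 and Pknox2 were at the edge of detection. Levels are given as TPM, a unit scaled by transcript length and library total, which can be compared between genes. At 1 TPM or more in both replicates, 6 of the 8 were detected, against 24.2% of all genes. By mean TPM, Pbx2 was the highest member and Pbx4 the lowest. In replicate 2 Pbx2 and Meis2 were close, at 11.4 and 11.2 TPM. There Meis2 was above Pbx2 by the authors' posterior mean TPM, at 12.15 against 11.4, and Meis1 had the most counts. Summed over members, the Meis genes gave 16.9 and 22.5 TPM in replicates 1 and 2, the Pbx genes 21.7 and 20.4, and the Pknox genes 4.41 and 6.55.

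**Figure D1:**
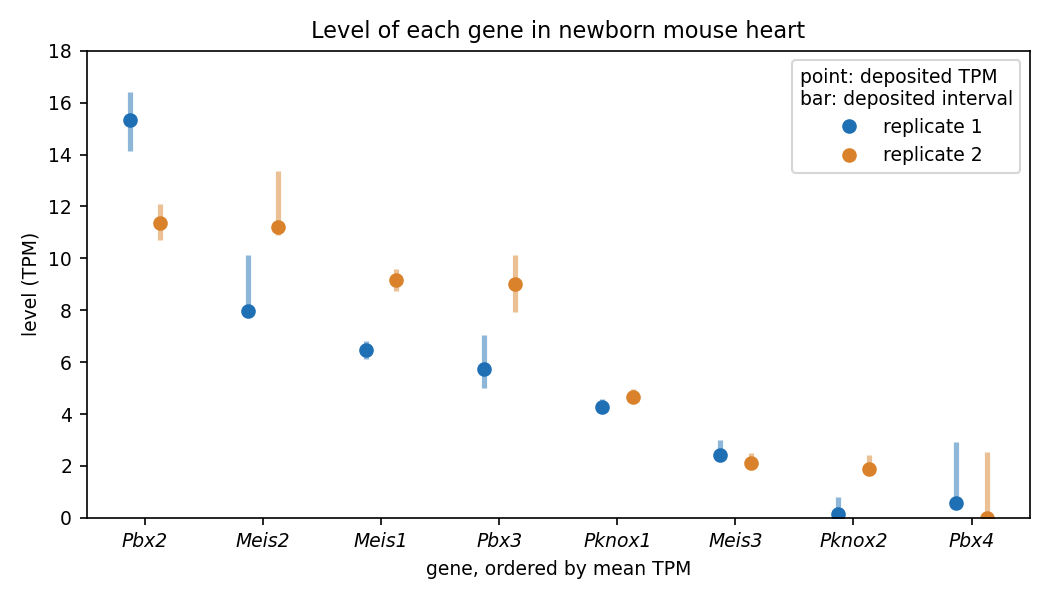
Level of each member in TPM on a linear axis, with genes ordered by mean level. Points are the deposited TPM of each replicate, and bars are the deposited interval around the posterior estimate, which need not be centred on the point. Pbx2 is highest in both replicates, from 11.4 to 15.4 TPM, and Pbx4 lies at 0.59 and 0 TPM.

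Among the Meis genes, Meis1 (ENSMUSG00000020160.14, chr11:18879817-19018985, minus strand) had 6.47 TPM from 1983 counts in replicate 1 and 9.16 TPM from 3264 counts in replicate 2, a mean of 7.81 ± 1.90 TPM (SD, n = 2). Meis2 (ENSMUSG00000027210.16, chr2:115863064-116065839, minus strand), known for roles in cranial and cardiac neural crest, had 7.96 TPM from 1753 counts and 11.2 TPM from 1907 counts, a mean of 9.58 ± 2.29 TPM (SD, n = 2). Meis1 and Meis2 thus stood close to each other in both hearts. Meis3 (ENSMUSG00000041420.14, chr7:16175090-16186504, plus strand), the third Meis paralogue, had 2.43 TPM from 407 counts and 2.13 TPM from 372 counts, a mean of 2.28 ± 0.212 TPM (SD, n = 2). It was the lowest of the Meis genes in each replicate.

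Among the Pbx genes, Pbx2 (ENSMUSG00000034673.10, chr17:34591266-34597400, plus strand) had 15.4 TPM from 2124 counts and 11.4 TPM from 2155 counts, a mean of 13.4 ± 2.82 TPM (SD, n = 2). Pbx3 (ENSMUSG00000038718.11, chr2:34171457-34373142, minus strand), known for its need in the control of breathing at birth, had 5.74 TPM from 880 counts and 9.01 TPM from 1508 counts, a mean of 7.38 ± 2.31 TPM (SD, n = 2). Pbx2 was above Pbx3 in both replicates, by a wide margin in replicate 1 and a narrow one in replicate 2. Pbx4 (ENSMUSG00000031860.13, chr8:69832491-69872292, plus strand), known for expression in the testis, had 79 counts and 0.59 TPM in replicate 1 and 0 counts in replicate 2. The exact Poisson interval at 95% was 62.5 to 98.5 counts in replicate 1 and reached 3.69 counts in replicate 2. Taking 3 counts as the floor that a count of 0 allows, 0.0408 CPM (counts scaled to the library total), Pbx4 was at least 27.7-fold higher in replicate 1 for its count of 79 as it stands. With the Poisson limits of both counts in place of 79 and 3 the ratio was 17.8-fold, and these intervals and bounds cover counting error only. The authors' posterior mean TPM of Pbx4 was 1.51 in replicate 1 and 0.99 in replicate 2, where the count was 0, and the deposited intervals of 0.643 to 2.92 and 0.0821 to 2.52 overlapped.

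Among the Pknox genes, also called Prep genes, Pknox1 (ENSMUSG00000006705.8, chr17:31564734-31607693, plus strand), known to be required in the early embryo, had 4.26 TPM from 1276 counts and 4.66 TPM from 1717 counts, a mean of 4.46 ± 0.283 TPM (SD, n = 2). Pknox2 (ENSMUSG00000035934.11, chr9:36890982-37147407, minus strand) had 0.15 TPM from 30 counts in replicate 1 and 1.89 TPM from 572 counts in replicate 2. Of the 7 members with a mean of 1 TPM or more, Pknox2 differed most between the hearts, its TPM being 12.6-fold higher and its CPM 18.1-fold higher in replicate 2. The Poisson intervals of Pknox2, 20.2 to 42.8 and 526 to 621 counts, lay apart, and so did the deposited intervals of 0.240 to 0.807 and 1.88 to 2.43 TPM. Pknox2 was higher in the replicate in which the summed smooth muscle, epicardial, urothelial and fibroblast markers were higher. A link to these markers was not tested.

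By mean TPM the order was Pbx2, Meis2, Meis1, Pbx3, Pknox1, Meis3, Pknox2 and Pbx4. To judge whether levels differed beyond the spread between replicates, the log2 ratio of TPM plus 0.1 was set in each replicate against 2.15, the 95th percentile of the absolute replicate difference over the 11594 genes whose mean reached 1 TPM. None of the 7 pairs of neighbours in this order passed that limit in both replicates. Meis1 and Pbx3 were the closest pair, at log2 ratios of 0.17 and 0.02. Pknox2 and Pbx4 changed places between the replicates, at log2 ratios of -1.47 and 4.32. Both replicates gave the same order of the 6 detected members, but no step between neighbours in it exceeded the limit. Members further apart in the order were compared within families only.

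Within families, 2 of 7 pairs were unequal by that limit, and both involved Pbx4. Pbx4, with a mean of 0.295 TPM, was not among the genes that set the limit. Its own replicate difference of -2.81 was larger in size, so the limit does not describe its spread. With the limit from all genes with a count in either replicate, 2.72, the same 2 pairs were unequal. With the 99th percentile as the limit, 4.85, there were 0. The log2 ratio of Pbx2 to Pbx4 was 4.49 and 6.84, and that of Pbx3 to Pbx4 was 3.08 and 6.51, where the value of replicate 2 rests on a count of 0 for Pbx4 and depends on the pseudocount. The Pbx3 to Pbx4 call was lost with the authors' posterior mean TPM, at which 1 pair was unequal. The ratio of Meis1 to Meis2 was -0.29 in both replicates. By counts not divided by length it was 0.18 and 0.77, so the direction between these genes depends on the length correction. Meis1 over Meis3 was 1.38 and 2.05, and Meis2 over Meis3 was 1.67 and 2.34, both with Meis3 lower in each heart. Both of these pairs passed when the limit, 1.28, came from genes with a mean of at least 10 TPM, and the count of unequal pairs was then 4. The means of Meis1, Meis2 and Meis3 were all below 10 TPM, so that limit came from genes of higher level. Pbx2 over Pbx3 was 1.40 and 0.33. Pknox1 over Pknox2 was 4.12 and 1.26, so Pknox1 was the higher in both, by a margin that followed the level of Pknox2.

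**Figure D2:**
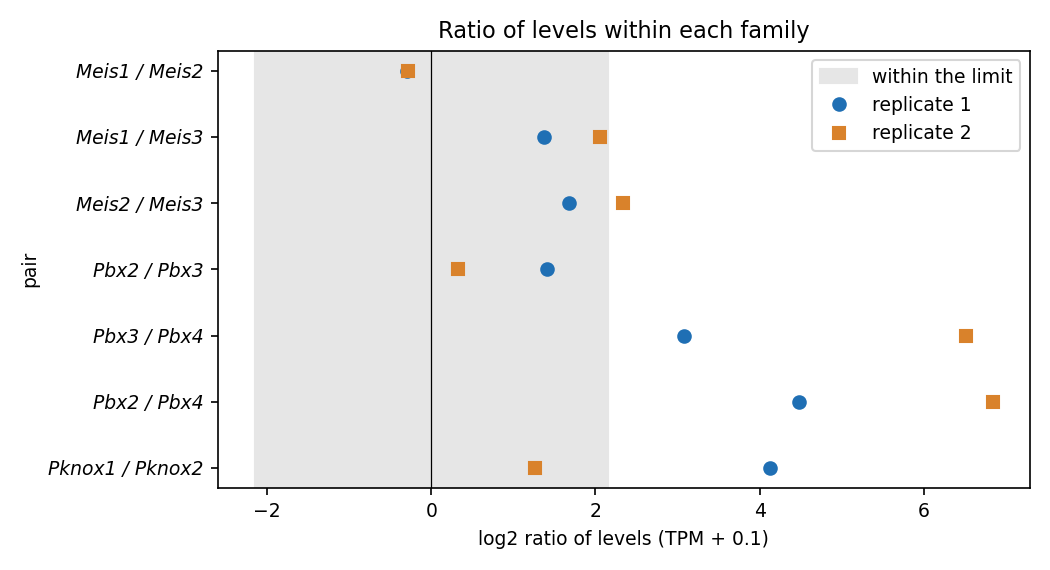
Log2 ratio of levels, TPM plus 0.1, for the 7 pairs within families, with one marker for each replicate. The grey band spans the limit of 2.15 on either side of 0. Both markers lie outside the band for Pbx3 over Pbx4 and Pbx2 over Pbx4, and the markers of Meis1 over Meis2 coincide at -0.29.

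Replicate differences are given as the log2 ratio of TPM plus 0.1, replicate 2 over replicate 1, after subtracting the median of 0.02 over genes whose mean reached 1 TPM. Of 7 members at that level, 5 were higher and 2 lower in replicate 2, with a median difference of 0.47, against 0 over all such genes by the centring. Only Pknox2 differed by 2-fold or more, at 2.97. Thus 1 of 7 members was 2-fold higher, against 10.1% of genes, and 0 of 7 were 2-fold lower, against 8.90% of genes. Pknox2 reached a mean of 1 TPM, at 1.02, only through its 1.89 TPM in replicate 2. Pbx4, with a mean of 0.295 TPM, was left out by this filter, and its difference was -2.81. Both counts therefore depend on the filter, and no direction was read from them. The next differences were 0.62 for Pbx3, 0.47 for Meis1 and 0.47 for Meis2. Pknox1 differed by 0.11, Meis3 by -0.20 and Pbx2 by -0.45. The deposited intervals of the replicates lay apart for 5 of 7 members, Meis1, Meis2, Pbx2, Pbx3 and Pknox2, against 73.3% of genes, so intervals that lie apart were common in these libraries.

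**Figure D3:**
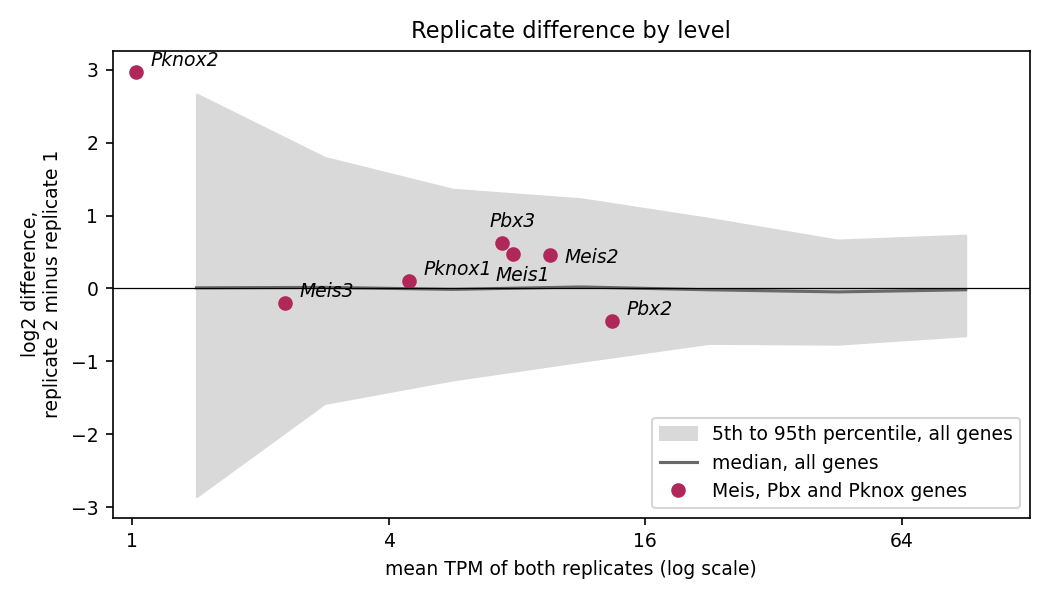
Log2 difference between replicates, replicate 2 minus replicate 1, against mean TPM on a log axis for the 7 members whose mean reached 1 TPM. The grey band runs from the 5th to the 95th percentile of all genes in steps of a doubling of TPM, and the line is their median. Of the members, 6 lie inside the band, and Pknox2 lies at 2.97.

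For Meis2 and Pbx2 the replicate difference in TPM came with a change in the effective length that the authors' estimate assigned to the gene. The effective length of Meis2 was 2087 nucleotides in replicate 1 and 1537 in replicate 2, and its difference by TMM-scaled counts, which are not divided by length, was 0.05 in place of 0.47. That of Pbx2 was 1311 and 1713 nucleotides, and its difference by counts was -0.05 in place of -0.45. Reads of both genes were thus nearly equal between the hearts. Meis1 and Pbx3 kept their difference by counts, at 0.65 and 0.70, as did Pknox2 at 3.90. Pknox1 stood at 0.36 by counts and Meis3 at -0.20.

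The members have 80 annotated transcripts, of which 47 had a count in either replicate and 26 in both. The leading transcript, the one with the largest share of a gene's TPM, was the same in both replicates for 3 of the 7 members with a mean of 1 TPM or more, against 57.0% of genes at a mean of 1 TPM with at least 5 transcripts. Pbx4, below that level, had no reads in replicate 2. No member had a transcript with 80% or more of its TPM in both replicates, against 15.3% of those genes. Pbx2-205 led Pbx2 with 51.1% and 55.4%, Pknox1-201 led Pknox1 with 49.0% and 70.5%, and Meis3-202 led Meis3 with 48.4% and 54.1%. Meis3-202 is annotated as a retained intron, so the leading RNA of Meis3 in both hearts was one not annotated to code for the full protein, while the coding Meis3-205 followed with 46.6% and 36.6%.

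**Figure D4:**
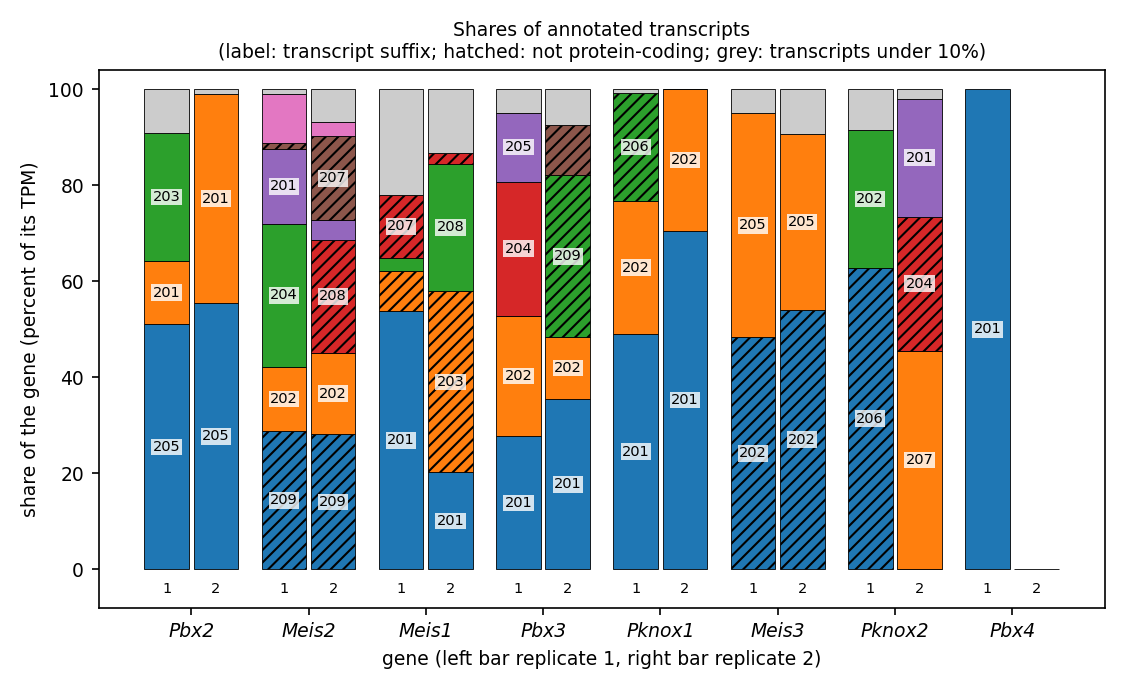
Share of each gene's TPM held by its annotated transcripts, in percent, with the left bar of each gene for replicate 1 and the right bar for replicate 2. Labels give the transcript suffix, hatching marks transcripts not annotated as protein-coding, and grey is the sum of transcripts under 10% in both replicates. Meis3-202, Pbx2-205 and Pknox1-201 lead in both replicates, and Pbx4 has a bar in replicate 1 alone.

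In Meis1, Meis2, Pbx3 and Pknox2 the leading transcript changed between the replicates. Meis1 was led by the coding Meis1-201 in replicate 1, with 53.7%, and by the noncoding processed transcript Meis1-203 in replicate 2, with 37.7%. Another coding transcript, Meis1-208, went from 91.1 to 1357 counts, and Meis1-207, annotated for nonsense-mediated decay, held 13.2% and 2.11%. The largest share was thus lower, and held by another form, in replicate 2. Meis2 was led by Meis2-204, with 29.8%, just above Meis2-209 with 28.8%, in replicate 1, and by Meis2-209, a noncoding processed transcript, with 28.1% in replicate 2. Meis2-204 had 736 counts in replicate 1 and 0 in replicate 2, where the noncoding Meis2-208 had 23.6% and the retained intron Meis2-207 17.6%. The coding Meis2-201, Meis2-202 and Meis2-203 held 15.7%, 13.4% and 10.2% in replicate 1 and 4.01%, 17.0% and 2.90% in replicate 2.

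Pbx3 was led in replicate 1 by the short Pbx3-204, with 28.0% from 26.8 counts, next to Pbx3-201 with 27.7% from 386 counts, and in replicate 2 by Pbx3-201 with 35.5% from 815 counts. Pbx3-202 held 25.1% and 12.9%, Pbx3-205 held 14.4% and 0%, and Pbx3-209, annotated for nonsense-mediated decay, held 0% and 33.8%. Pbx3-210, a noncoding processed transcript, held 0% and 10.5%. The short forms were thus assigned in 1 replicate each, while the full-length Pbx3-201 and Pbx3-202 had counts in both. In Pbx2 the counts of Pbx2-203 were 734 and 0 and those of Pbx2-201 were 593 and 1524, so that the full coding form held 13.2% and 43.6%. Pbx4-201 held all Pbx4 RNA of replicate 1. Pknox1-202 held 27.7% and 29.5% of Pknox1, and Pknox1-206, a retained intron, 22.5% and 0%. Pknox2 was led by the noncoding Pknox2-206 in replicate 1, with 62.9% of its TPM, from 14.0 of 30 counts. In replicate 2 it was led by the coding Pknox2-207, with 45.6% of its TPM, from 296 of 572 counts. Pknox2-202 held 28.7% and 0%, Pknox2-201 0% and 24.5%, and the retained intron Pknox2-204 0% and 28.0%. The Pknox2 shares of replicate 1 rest on too few reads to describe its forms there.

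Summed by annotated class, protein-coding transcripts held most of Pbx2, with 92.6% and 99% of its TPM, and of Pknox1, with 77.5% and 100%. They held 72.2% and 52.8% of Meis1, and 51.4% and 44.6% of Meis3. The coding share was far lower in replicate 2 for Meis2, at 69.7% and 25.3%, and for Pbx3, at 95.1% and 48.4%. In Meis2 the rest of replicate 2 was noncoding processed RNA, 51.8%, and retained introns, 22.9%. These are shares of TPM, in which a short transcript weighs more than its reads. Pbx3-209, of 621 nucleotides, held 33.8% of Pbx3 in replicate 2 from 112 of 1508 counts. Meis2-208, of 1022 nucleotides, held 23.6% of Meis2 there from 215 of 1907 counts. The lower coding shares thus rest partly on short transcripts with few reads, and class shares by counts were not computed. Total RNA holds unspliced and noncoding RNA beside mRNA, and shares of overlapping transcripts are estimates that the quantification divides among models.

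Alternative segments within the coding sequence were described by summing the transcripts with and without each segment. These are sums of whole-transcript estimates and not counts of junction reads. Meis1 and Meis2 share an exon of 95 bases whose inclusion ends the reading frame early, after the homeodomain. It lies at chr11:18883988-18884082 in Meis1 and chr2:115866810-115866904 in Meis2, both on the minus strand. Shown are its 59 coding bases in Meis1-201 (chr11:18884024-18884082) and Meis2-202 (chr2:115866846-115866904), in GRCm38 and 5′ to 3′, with the stop codon in capitals.
Meis1 exon: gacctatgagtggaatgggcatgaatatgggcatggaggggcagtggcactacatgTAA
Meis2 exon: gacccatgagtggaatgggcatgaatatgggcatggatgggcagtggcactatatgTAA
The genes were the same at 56 of these 59 bases, 94.9%, above the 84.1% identity of their homeoboxes. With the exon, Meis1-201 has 390 codons against 465 in Meis1-209, and Meis2-202 has 393 codons against 470 in Meis2-203.

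In Meis1, transcripts with the 95-base exon held 4.02 TPM against 1.77 TPM without it in replicate 1, and 5.31 against 0.20 TPM in replicate 2. That is a share of 69.4% and 96.4%, or 74.5% and 97.7% by counts. In Meis2 the share with the exon was 62.9% and 83.1%, or 65.4% and 78.5% by counts. In both genes, and in both hearts, transcripts with the exon thus held the larger share of those that could be placed, and the share was higher in replicate 2. Noncoding transcripts made up most of the TPM with the exon in replicate 2. Meis1-203 held 3.45 of the 5.31 TPM in Meis1, and Meis2-208 held 2.65 of the 4.71 TPM in Meis2. Transcripts that hold neither choice were left out: of the 9.16 TPM of Meis1 in replicate 2, 5.31 and 0.20 were placed, and of the 11.2 TPM of Meis2, 4.71 with and 0.96 without the exon. In replicate 1 the Meis2 values were 3.49 and 2.06 of 7.96 TPM. The long coding Meis1-209 had 208 counts in replicate 1 and 0 in replicate 2. With protein-coding transcripts alone the Meis1 shares were 84.2% and 100%, and those of Meis2 were 62.9% and 72.8%. The 100% rests on Meis1-201 alone, at 1.86 TPM. The coding Meis1-206 and Meis1-208, at 0.54 and 2.44 TPM in replicate 2, hold neither choice.

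Meis2 has a second choice of 21 bases at chr2:115867359-115867379, minus strand, upstream of that exon, shown here because its use differed most between the hearts.
Meis2 segment: gttttcttcttgatccttcag
It adds 7 codons, so that Meis2-201 has 477 codons and Meis2-203 has 470. Transcripts with it held 64.2% in replicate 1 and 8.38% in replicate 2, or 66.4% and 8.83% by counts. Of the coding transcripts, Meis2-204 carries both this segment and the 95-base exon, and it had 736 and 0 counts. With protein-coding transcripts alone the shares were 65.2% and 15.9%.

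Pbx3 has an exon of 113 bases at chr2:34176749-34176861, minus strand, whose absence shortens the coding sequence from 434 codons in Pbx3-201 to 351 in Pbx3-202. Its sequence, in GRCm38 and 5′ to 3′, is shown because it separates the long and the short coding form.
Pbx3 exon: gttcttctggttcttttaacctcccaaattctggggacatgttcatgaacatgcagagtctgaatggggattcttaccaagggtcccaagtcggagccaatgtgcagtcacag
Transcripts with it held 52.5% and 60.4%, or 51.0% and 67.6% by counts, and with protein-coding transcripts alone 52.5% and 73.4%. The long form thus held the larger share of coding RNA in replicate 2, with 815 counts for Pbx3-201 and 314 for Pbx3-202, while replicate 1 had 386 and 372. In Meis3, a segment of 51 bases at chr7:16178951-16179001, plus strand, was present in 9.60% and 17.9%, the shorter Meis3-205 of 361 codons being favoured over Meis3-201 of 378 codons in both replicates.

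**Figure D5:**
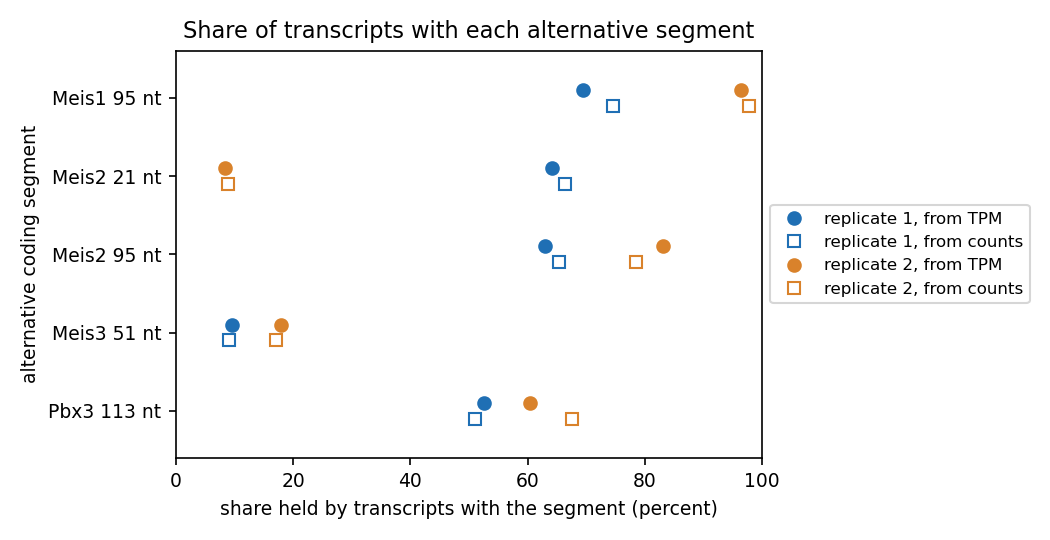
Share, in percent, of the transcripts with each alternative coding segment among those with and without it, from TPM (filled circles) and from counts (open squares) in each replicate. The Meis1 exon of 95 bases lies at 69.4% and 96.4% from TPM, the Meis2 segment of 21 bases at 64.2% and 8.38%, and the other 3 segments differ less between replicates.

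Genes that overlap the members could share reads with them. The libraries were stranded, and the antisense genes Gm16140 and Gm16141 within Meis1 had 0 and 0, and 0 and 7, counts, while C79798 within Pbx3 and Gm3896 within Pknox2 had 0 counts in both replicates. On the same strand within Meis1, Gm37818 had 32.5 and 111 counts and 2610001A08Rik had 75 and 0, small beside the counts of Meis1. Gpsm3, which overlaps the start of Pbx2 on the same strand, had 34 and 14 counts. Whether reads were divided correctly between these genes was not tested.

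Hox proteins are the classical DNA-binding partners of Meis and Pbx. Of 39 Hox genes listed, 0 were detected at 1 TPM in both replicates, and 21 had 0 counts in both. Their summed level was 1.53 and 4.68 TPM, below that of Meis1 alone. The highest were Hoxa10, with 0 and 200 counts, Hoxa5, with 0 and 165 counts, and Hoxb2, with 70 and 126 counts. Hoxa10 and Hoxa5 thus had reads in replicate 2 alone, while Hoxa3 had 148 and 0 counts and Hoxb3 had 31 and 4, the other way round.

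Other TALE genes were present beside the members. Of 9 listed, 7 were detected in both replicates, with a median difference of 0.21. The median of the members, 0.47, is the value of Meis2, which was 0.05 by TMM-scaled counts. Over all genes at a mean of 1 TPM the median absolute difference was 0.40. No difference between the lists was therefore read from these medians. Irx4, a factor of ventricular muscle, was highest with 16.7 and 22.6 TPM, followed by Irx3 with 9.57 and 11.3 TPM and the repressor Tgif2 with 7.36 and 5.28 TPM. Irx4 was thus above each of the 8 members in both replicates, and Mkx had 0 counts in both replicates.

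All 13 genes listed as cofactors of TALE complexes were detected in both replicates, with a median difference of 0.04 and 3 of them 2-fold higher in replicate 2. Myh10, a nonmuscle myosin known to bind Pbx proteins in the cytoplasm, had 39.1 and 21.9 TPM. The corepressor Ncor1 had 14.3 and 34.1 TPM, although its counts were 6753 and 6661, another case in which TPM and counts differed. The corepressor subunit Hdac3 had 25.1 and 21.3 TPM, and Pbxip1, a protein that binds Pbx, had 21.2 and 19.5 TPM. Mean levels of the cofactors ran from 1.64 TPM for Crtc1 to 30.4 TPM for Myh10, a range that spans most of the members.

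Both libraries held 17 of 23 listed cardiac transcription factors at 1 TPM or more, with a median difference of -0.22. The nearest in level, by distance of log2 values over both replicates, was Mef2c for Meis1, at 7.23 and 8.11 TPM, and also for Pbx3. It was Hand2 for Meis2, at 8.95 and 11.1 TPM, Tead1 for Pbx2, at 22.8 and 15.9 TPM, Tbx18 for Pknox1, at 4.49 and 3.91 TPM, and Tbx2 for Meis3, at 3.13 and 2.25 TPM. The highest of the list stood well above every member, with Tbx20 at 154 and 142 TPM, Hopx at 133 and 148 TPM and Nkx2-5 at 90.2 and 71.9 TPM. Likeness of level in 2 libraries says nothing of shared control.

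Cell-cycle inhibitors are known as downstream genes of Meis1 in cardiomyocytes. Of 7 cyclin-dependent kinase inhibitors, 5 were detected in both replicates, all 5 lower in replicate 2 with a median difference of -0.73, and 2 of them 2-fold lower. Cdkn1c had 34.9 and 22.5 TPM, Cdkn1b had 17.0 and 11.4 TPM, and Cdkn1a had 11.6 and 4.48 TPM, while Cdkn2a had 0 counts in both. Of 16 cell-cycle genes, all were detected and 14 were lower in replicate 2, with a median difference of -0.43. Cdk1, the mitotic kinase, had 49.8 and 24.1 TPM. Meis1 itself was higher in replicate 2, and a relation between it and these genes was not tested, as 2 replicates allow none. Of 8 hypoxia and glycolysis genes linked to Meis1, all were detected and 7 were lower in replicate 2, with a median difference of -0.24. Hif1a, which Meis1 is known to regulate in blood stem cells, had 35.6 and 34.4 TPM and differed by -0.07.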

How the data were processed

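Total RNA-seq of 2 newborn heart libraries was used. Per the labels, RNA over 200 nucleotides was depleted of ribosomal RNA and sequenced as stranded pairs of 101 nucleotides with spike-ins. The deposited notes name mm10 and GENCODE M4, and the aligner, the quantification program and the confidence level of the intervals were not given in the sources used here, although column names match those RSEM writes. The authors deposited expected counts (estimated fragments, not normalized), TPM and FPKM (both scaled by length and library), the transcript share as a percent of a gene's TPM, posterior mean TPM and interval bounds, a signal on the TPM scale.

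Each deposited table held 69691 entries, of which 43346 were genes. Names and coordinates came from GENCODE M21 (GRCm38), matched by identifier for 42462 genes. Detection was 1 TPM in both replicates, the pseudocount was 0.1, and replicate differences had the median over genes with a mean of 1 TPM subtracted. Ratios of members were set against the 95th percentile of these differences. Shares of segments, splice positions and sequences came from the M21 models, in which 73 of 80 member transcripts have the length in the deposited files. Fractional counts were rounded to whole numbers for TMM (edgeR 4.0.16) and size factors (DESeq2 1.42.0), R 4.3.3, with no test run. Other steps used matplotlib 3.10.9, scipy 1.17.1, pandas 2.3.3 and numpy 2.4.6 in Python 3.11.15, and the 2-fold call was checked on simulated counts, while pair calls and transcript shares were not. The simulated counts had Poisson noise alone and the same effective lengths in both libraries. That check therefore does not cover the larger spread between the real replicates. Alternatives covered thresholds, pseudocounts, filters, scaling, units and single replicates. Segment shares and their alternatives were added after seeing the data. Named genes were all members, transcripts with 10% or more in either replicate, and of each list up to 4 of highest mean TPM and up to 3 with the largest difference. Hif1a, Mkx, Hoxa3, Hoxb3, Cdkn2a, Krt19, Wt1, Msln, Lrrn4 and the markers given at 0 counts were named outside it, with their values already known. Members and lists were chosen with earlier results of these data known. Nothing states that the replicates came from separate animals beyond independent isolates, so their spread may be partly technical.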

Additional observations from a re-analysis of the deposited data

How the results depend on the processing

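Of 153 alternative values, 139 were labelled as kept. They held their direction and side of the threshold, or, for counts and segment shares, stayed within 1.5 times or the replicate SD. Size could still change. Kept values include 0.05 by TMM counts for Meis2, against 0.47 by TPM, and -0.05 for Pbx2, against -0.45. The SD margin was wide where replicates differed, as for the second Meis2 segment (64.2% and 8.38% by TPM). Although 0 values reversed a called direction, only Pknox2 and the ratios of Pbx2 and Pbx3 to Pbx4 were called. A reversal was therefore unlikely from the start. Detection counted 6 members at 0.5 and 2 TPM, by FPKM and by posterior mean TPM, and 6 to 7 with 1 replicate left out. The count of unequal pairs, 2, was 4 by CPM not divided by length, 4 with the limit from genes at a mean of 10 TPM, 1 by posterior mean TPM and 0 with the 99th percentile as limit, and 3 with either replicate left out. Of the 7 members with a mean of 1 TPM, which leaves out Pbx4, 1 was past the fold threshold under each scaling and pseudocount tried, and 2 at 1.5-fold. A transcript of 80% was found in 0 members, in 1 with coding transcripts alone, and in 0 to 1 with 1 replicate left out, where Pbx4-201 was the 1. The log2 ratio of Meis1 to Meis2 changed sign by counts not divided by length, to 0.48. The lowest counts were those of Pbx4, 79 and 0, and of Pknox2 in replicate 1, 30, and transcript shares carry an error that the deposited files do not give. No paired analysis was possible because there was 1 group.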
